A study of Mus musculus with 3 samples.

Results

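The 10 genes described here encode enzymes that remove superoxide or peroxides, or that reduce quinones: the superoxide dismutases *Sod1* and *Sod2*, catalase (*Cat*), the glutathione peroxidases *Gpx1* and *Gpx4*, the peroxiredoxins *Prdx1*, *Prdx2*, *Prdx5* and *Prdx6*, and the quinone reductase *Nqo1*. They were chosen by symbol, although earlier results of these data were known by then, and all 10 were found among the 22698 genes measured. The data were RNA-seq profiles of melan-a, an immortal line of mouse melanocytes, in 3 biological replicates labelled 1, 3 and 4. The cells carried a C57BL/6J background, came from Ink4a-ARF-/- mice, and received no treatment beyond the growth medium. That medium held 10% fetal bovine serum, 200 nM 12-O-tetradecanoylphorbol 13-acetate (a phorbol ester that activates protein kinase C) and 200 pM cholera toxin (which raises cyclic AMP). Since there was 1 condition and 1 cell line, levels were compared between genes and not between groups.

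The values were FPKM, fragments counted per length of transcript and per library size. Levels of genes of different length could thus be set side by side, but only as far as the length used fits the transcripts present. The order of the leading genes depended on that length, as described below. The scaled library sizes worked out from the values were 53900000, 47000000 and 66400000 reads in replicates 1, 3 and 4. All 7 melanocyte markers were expressed, led by *Tyrp1* at 3144 FPKM, *Dct* at 1412 and *Mlana* at 578 on average. The summed level of 4 keratinocyte markers was 0.36 to 0.7 FPKM, that of 4 fibroblast markers 1.52 to 1.85, that of 3 immune markers 0.76 to 1.6 and that of 2 endothelial markers 0.01 in each replicate. *Krt1*, *Ptprc* and *Itgam* were at 0 in all replicates. *Cdkn2a*, the gene of the Ink4a-ARF locus, was at 19.2, 16.5 and 24.3 FPKM, and values per gene do not show on which of its exons the reads lay.

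Superoxide dismutases turn superoxide into hydrogen peroxide, with a copper and zinc enzyme in the cytosol (*Sod1*) and a manganese enzyme in the mitochondrial matrix (*Sod2*). Hydrogen peroxide is then removed by catalase in peroxisomes, by glutathione peroxidases at the expense of glutathione, and by peroxiredoxins, most of which are recharged by thioredoxin. Melanin synthesis by tyrosinase yields quinones and hydrogen peroxide as by-products, so pigment cells are a setting in which these enzymes have long been studied.

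Glutathione peroxidases 1 and 4 differ from the other enzymes in that their active site holds selenocysteine, which is encoded by TGA, a codon that elsewhere ends translation. Among the coding sequences of the 10 genes, an in-frame TGA before the end was found in these 2 genes alone. The coding sequence around it is shown because it sets these 2 genes, among them the highest of the 10 as deposited, apart from the rest, with TGA in capitals (mm9, plus strand, coding exon). In *Gpx1* it was codon 47 of 201, at chr9:108241782-108241784. In *Gpx4* it was codon 73 of 197 in the shorter coding sequence and codon 129 of 253 in the longer one, at chr10:79517482-79517484.
Gpx1: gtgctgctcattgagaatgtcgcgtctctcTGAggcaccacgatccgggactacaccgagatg
Gpx4: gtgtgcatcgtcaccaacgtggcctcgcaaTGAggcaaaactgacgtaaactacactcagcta
Of 21400 nuclear genes with a coding sequence in the annotation, 24 (0.112%) held such a codon. *Gpx1* had the highest mean level of these 24 and *Gpx4* the sixth highest. Between them lay *Sep15* (318 FPKM), *Sepp1* (215 FPKM), *Selm* (186 FPKM) and *Sepw1* (117 FPKM), which are named here after their values were seen.

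*Gpx1*, whose product reduces hydrogen peroxide in the cytosol and mitochondria, was the highest of the 10 genes. Its level was 345, 408 and 321 FPKM in replicates 1, 3 and 4 (mean 358 ± 44.9, SD, n = 3). It was highest in replicate 3, and its lowest replicate lay above the highest replicate of each of the other 9 genes. *Gpx1* ranked 128 of 22698 genes (ENSMUSG00000063856, chr9:108241607-108242671, plus strand, mm9). *Gpx4*, which reduces lipid hydroperoxides within membranes, was at 103, 128 and 85.5 FPKM (mean 105 ± 21.4; ENSMUSG00000075706, chr10:79509911-79519184, plus strand). Replicate 3 was again the highest and replicate 4 the lowest, and the coefficient of variation of 20.3% was the largest among the 10. The ratio of *Gpx1* to *Gpx4* was 3.36, 3.19 and 3.76 in the 3 replicates.

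*Prdx1*, a cytosolic peroxiredoxin that is recharged by thioredoxin, came next with 210.1, 196 and 199 FPKM (mean 202 ± 7.47; rank 244; ENSMUSG00000028691, chr4:116358149-116373427, plus strand). Its replicates lay close together, with a coefficient of variation of 3.7%. *Prdx2*, the other typical cytosolic peroxiredoxin of the set and best known from red blood cells, was at 105, 108 and 95 FPKM (mean 102 ± 6.58; ENSMUSG00000005161, chr8:87493486-87498733, plus strand). *Prdx1* exceeded *Prdx2* in all 3 replicates, by 2.01, 1.82 and 2.09 times. *Prdx5*, whose product is found in mitochondria, peroxisomes and cytosol, was at 96.9, 117 and 86.9 FPKM (mean 100.1 ± 15.1; ENSMUSG00000024953, chr19:6981187-6984596, minus strand). *Prdx6*, a peroxiredoxin with a single catalytic cysteine that also has phospholipase activity, was the lowest of these 4 with 60.5, 66.4 and 54.1 FPKM (mean 60.3 ± 6.16; ENSMUSG00000026701, chr1:163170243-163181350, minus strand). Like *Gpx1* and *Gpx4*, *Prdx2*, *Prdx5* and *Prdx6* were highest in replicate 3 and lowest in replicate 4, whereas *Prdx1* was highest in replicate 1.

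The superoxide dismutases were far apart in level. *Sod1* was at 162, 177 and 154 FPKM (mean 164 ± 12; rank 312; ENSMUSG00000022982, chr16:90220987-90226567, plus strand). *Sod2* was at 13.7, 14.1 and 14.1 FPKM (mean 13.9 ± 0.234; rank 4305; ENSMUSG00000006818, chr17:13200705-13210985, plus strand). The ratio of *Sod1* to *Sod2* was 11.9, 12.6 and 10.9 in the 3 replicates, a mean log2 ratio of 3.56 ± 0.1. In bulk RNA, fewer cells that express a gene and less of its RNA per cell cannot be told apart.

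*Cat*, the peroxisomal enzyme that splits hydrogen peroxide without a reducing partner, was at 64.7, 60.5 and 68.4 FPKM (mean 64.5 ± 3.96; rank 1027; ENSMUSG00000027187, chr2:103294006-103325317, minus strand). It was the only 1 of the 10 genes that was lowest in replicate 3 and highest in replicate 4. *Nqo1*, which reduces quinones to hydroquinones and is a classic target of the transcription factor NRF2, was at 13.6, 13.8 and 13.8 FPKM (mean 13.7 ± 0.114; rank 4352; ENSMUSG00000003849, chr8:109912125-109927106, minus strand). It had the smallest coefficient of variation of the 10, at 0.828%, which was less than its counting error of 3.15% in the shallowest replicate.

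**Figure D1:**
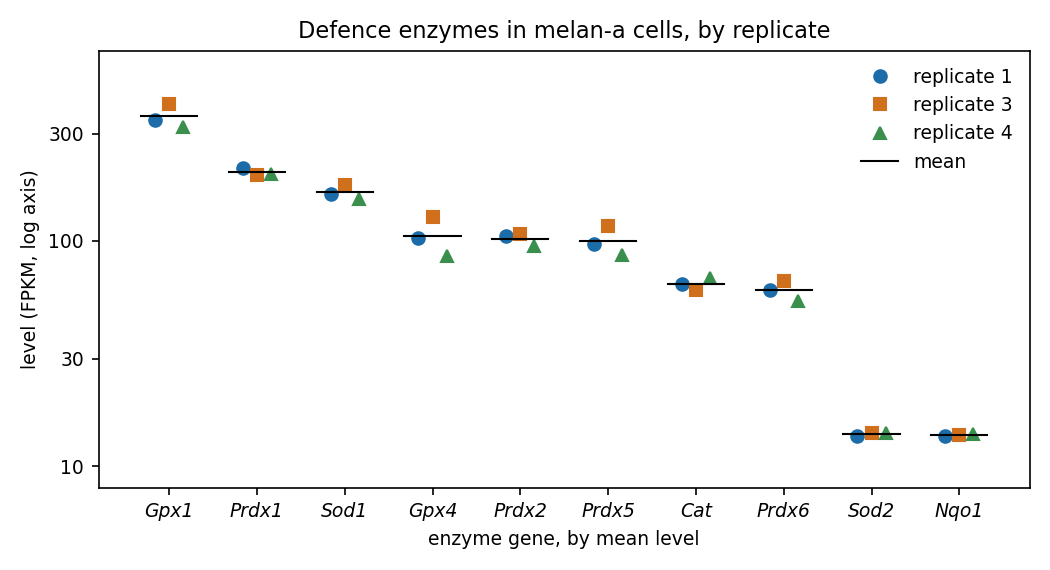
Level of each of the 10 enzyme genes (FPKM, log axis) in replicates 1, 3 and 4, with genes in the order of their mean, shown as a line. *Gpx1* lies between 321 and 408 FPKM, above every other gene, whereas *Sod2* and *Nqo1* lie between 13.6 and 14.1.

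All 10 genes reached 1 FPKM in every replicate, as did 44.1% of all genes. By mean level, 6 of the 10 (*Gpx1*, *Prdx1*, *Sod1*, *Gpx4*, *Prdx2* and *Prdx5*) were among the highest 1000 genes, a category that holds 4.41% of all genes. The lowest mean in that category was 66 FPKM, so *Cat* and *Prdx6* fell just outside it. Taken replicate by replicate, the category held 6, 6 and 7 of the 10, since *Cat* entered it in replicate 4 at rank 893. Together the 10 genes amounted to 1174, 1288 and 1091 FPKM, which was 0.313% ± 0.012 of the FPKM of all genes.

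Neighbours in the order were then compared within each replicate. Of 9 neighbouring pairs, 5 had ranges that did not overlap: *Gpx1* above *Prdx1* (mean log2 ratio 0.82 ± 0.21), *Prdx1* above *Sod1* (0.3 ± 0.13), *Sod1* above *Gpx4* (0.66 ± 0.19), *Prdx5* above *Cat* (0.63 ± 0.3) and *Prdx6* above *Sod2* (2.11 ± 0.15). The widest step, from *Prdx6* to *Sod2*, was 4.32-fold. The other 4 pairs overlapped, so *Gpx4*, *Prdx2* and *Prdx5* could not be ordered (mean log2 ratios 0.02 ± 0.21 and 0.04 ± 0.14), nor could *Cat* and *Prdx6* (0.1 ± 0.24). *Sod2* and *Nqo1* also overlapped in range, although *Sod2* was the higher in each replicate, by 1.01-fold on average. With 3 replicates a two-sided exact sign-flip permutation test cannot give a p below 0.25. That value was reached by the 6 pairs in the same order in all replicates (adjusted over the 9 pairs, p = 0.375, exact test), so no step passed a threshold of 0.05.

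Most of the summed level came from few genes. *Gpx1* made up 30.1% ± 1.32 of the sum of the 10, *Prdx1* 17.1% ± 1.65 and *Sod1* 13.9% ± 0.167. *Gpx1* and *Prdx1* together accounted for 47.3% ± 0.38, and the 6 highest genes for 87.1% ± 0.88. By kind of enzyme, the 4 peroxiredoxins summed to 465 ± 26.6 FPKM and the 2 glutathione peroxidases to 463 ± 66.1 FPKM. As deposited, these sums could not be ordered, since their ratio was 1.06, 0.908 and 1.07 in the 3 replicates. Their mean log2 ratio of 0.01 became 1.07, with the peroxiredoxins higher, when reads were divided by the shortest transcript that holds the full coding part of each gene. Both exceeded *Cat* in every replicate, the peroxiredoxins by 6.36 to 8.04 times and the glutathione peroxidases by 5.94 to 8.86 times. The 7 genes for removal of peroxides summed to 5.6, 5.66 and 5.43 times the 2 superoxide dismutases, a mean log2 ratio of 2.48. It became 3.14 with that shorter length and 1.76 with bases repeated exactly elsewhere left out of the length. These are sums of transcript levels, and enzyme amounts or activities were not measured.

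**Figure D2:**
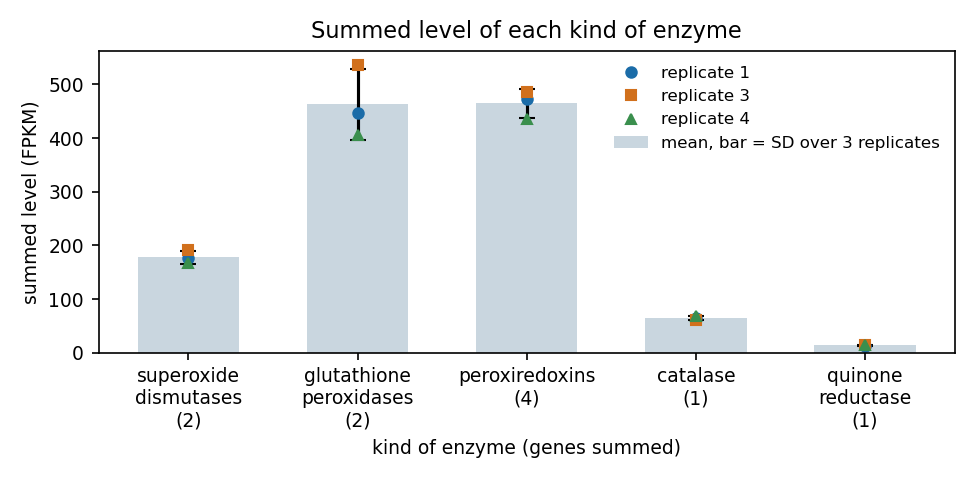
Summed level (FPKM) of the genes of each kind of enzyme, with the number of genes in brackets, as the mean of 3 replicates (bar), SD (line) and each replicate (points). Glutathione peroxidases (463 ± 66.1) and peroxiredoxins (465 ± 26.6) overlap with the deposited lengths, but not with the shortest full coding transcripts (mean log2 ratio 1.07). Both lie above superoxide dismutases (178 ± 12), catalase (64.5 ± 3.96) and quinone reductase (13.7 ± 0.114).

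The order of the leading genes depended on the length by which reads were divided. The deposited values fitted a division by the joined exons of all protein-coding transcripts of a gene. For *Prdx1* these joined exons came to 2669 bases, although its shortest transcript with the full coding part was 877 bases long. For *Gpx1*, with 1 annotated transcript, both lengths were 847 bases. In reads estimated with the joined exons, *Prdx1* was ahead, with 30229, 24583 and 35258 reads against 15728, 16236 and 18056 for *Gpx1*. The fit of that length was checked only on genes shorter than 1600 bases, so *Prdx1* lay outside the check. Divided by the shortest transcript with the full coding part, *Prdx1* came to 639, 596 and 605 FPKM (mean 614 ± 22.7; rank 75 of all genes treated alike). It then stood 1.86, 1.46 and 1.89 times above *Gpx1*, in place of 1.64, 2.08 and 1.61 times below it. *Prdx1* made up 35% ± 2.72 of the sum on that scale and *Gpx1* 20.3% ± 1.31. *Prdx2* rose to 174 FPKM and *Prdx5* to 164, level with *Sod1* at 164 FPKM, whereas *Sod1*, *Cat*, *Sod2* and *Nqo1* kept their values. For *Sod1*, *Sod2* and *Nqo1* this was fixed beforehand, since each had 1 annotated transcript. *Sod2* was divided by 3824 bases and *Sod1* by 646. In estimated reads *Sod1* had 5644, 5382 and 6589, and *Sod2* had 2816, 2529 and 3570. No shorter *Sod2* transcript was annotated, so the ratio of *Sod1* to *Sod2* with such a length was not examined. The median change over all genes of at least 1 FPKM on average was a factor of 1.01, compared with 3.04 for *Prdx1*. Which transcripts the cells used cannot be read from values per gene.

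**Figure D3:**
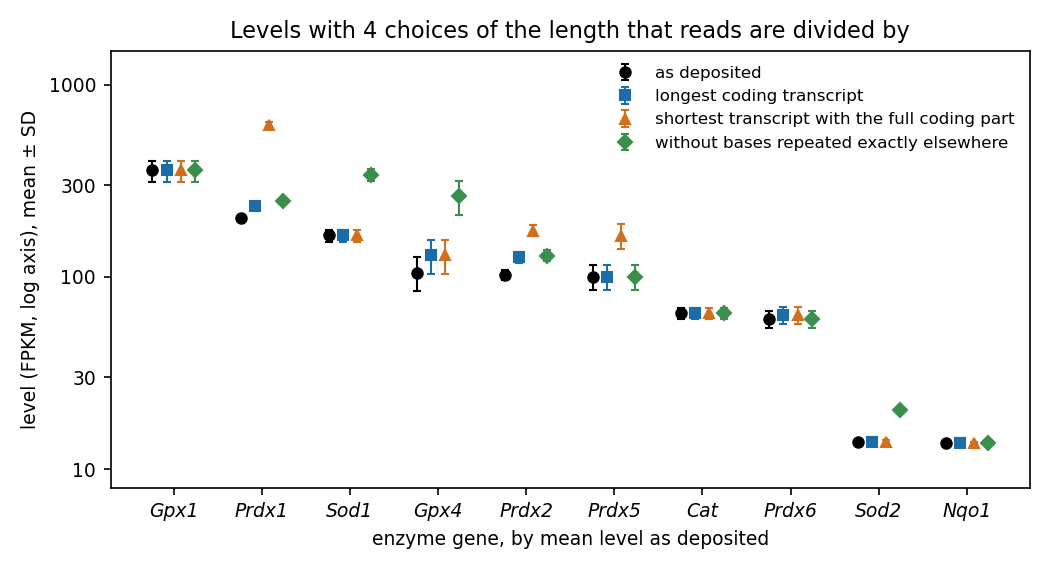
Level of each gene (FPKM, log axis, mean and SD of 3 replicates) with 4 choices of the length that its reads are divided by. *Prdx1* moves from 202 FPKM as deposited to 614 with the shortest transcript that has the full coding part, whereas *Gpx1* stays at 358 with all 4 choices.

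Several of the genes have near-identical copies elsewhere in the mouse genome, where short reads may be lost or gained. Over exons joined per gene, copies of at least 95% identity and 100 bases were found for 5 of the 10 (*Sod1*, *Sod2*, *Gpx4*, *Prdx1* and *Prdx2*) and for none of the others. *Sod1* was covered over 94.7% of its bases by the pseudogene Gm8566 (chr6:67155508-67156120, 97.2% identity), and 51.5% of its bases lay in exact runs of 50 bases or more. *Gpx4* had a copy without an annotated gene (chr10:45595140-45595872, 99.7% identity), with 59.8% of its bases in exact runs. *Sod2* had matching stretches at 321 loci, and 31.8% of its bases lay in exact runs. The longest stretch, of 1424 bases at 97.2% identity, lies within *Mllt4* (chr17:13909112-13910535), which as a whole gene was at 20.5, 17.3 and 22.5 FPKM. If reads in exact runs had not been counted at all, *Sod1* would come to 339 FPKM, *Gpx4* to 262 and *Sod2* to 20.4, and both *Sod1* and *Gpx4* would then lie above *Prdx1* at 248. How reads with several places in the genome were treated was not given in the sources used here, so these values are limits and not corrections. The copy of *Prdx1* on chromosome 16 is annotated as the gene *Gm7204* (chr16:48218703-48219569, 95.8% identity) and was listed at 39.8, 34.6 and 33.7 FPKM, an estimated 1871, 1418 and 1955 reads. The copy of *Prdx2* is the pseudogene Gm7110 on chromosome 1, which was not analysed here, and *Cntnap5b*, the gene around it, was at 0. Between the 10 genes themselves, compared in the sense of transcription only, the longest shared run was 18 bases, a stretch of T that ends in AA. *Prdx1* and *Prdx2* shared at most 14 bases.

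Exons of 2 of the genes also overlap a gene on the opposite strand. *Prdx2* shares 177 exon bases with *Rnaseh2a* (mean 6.18 FPKM), which encodes a subunit of ribonuclease H2. *Prdx5* shares 409 exon bases with *Trmt112* (mean 9.86 FPKM), a cofactor of methyltransferases. The library kit marked strand, but the strand setting of the counting was not given in the sources used here.

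Differences between replicates moved with base composition. From replicate 4 to replicate 3 the log2 change was 0.58 for *Gpx4*, the richest in G and C of the 10 (61.7% of its exon bases). It was 0.42 for *Prdx5* (58.3% GC) and 0.35 for *Gpx1* (56.2% GC). At the other end of the range, *Prdx1* and *Sod2* (both 43.6% GC) changed by -0.02 and 0.00, and *Cat* (48.7% GC) by -0.18. *Prdx6* stood out, with a log2 change of 0.3 at 47.6% GC. In all, 4 of the 10 genes were at least 1.2 times higher in replicate 3, compared with 28.6% of the 10011 genes that reached 1 FPKM in every replicate. Spearman's rho between GC and this log2 ratio was 0.783 across 10007 genes and 0.806 across the 10, given as a description, since genes of the same libraries are not independent. The part of base composition in the difference was not tested. The coefficient of variation was below the median of those 10011 genes (11.4%) for 7 of the 10 and above it for *Gpx4* (20.3%), *Prdx5* (15%) and *Gpx1* (12.6%).

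**Figure D4:**
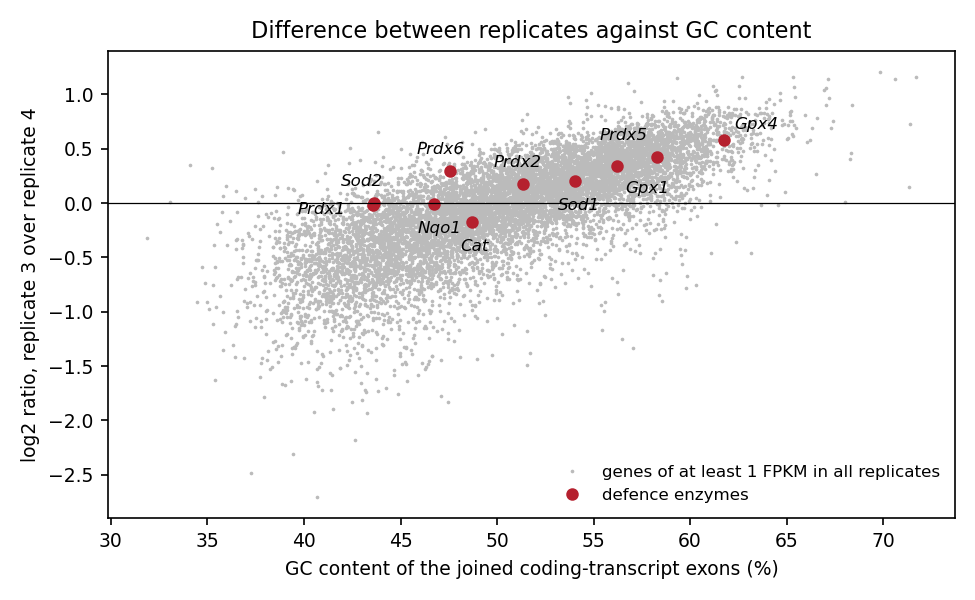
Log2 ratio of the level in replicate 3 to that in replicate 4 against GC content of the joined exons (%), for genes that reached 1 FPKM in every replicate (grey) and the 10 enzyme genes (red). Among the 10, the ratio is largest for *Gpx4* (0.58 at 61.7% GC) and lies near 0 for *Sod2*, *Prdx1* and *Nqo1*.

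The rest of the superoxide dismutase, glutathione peroxidase and peroxiredoxin families was mostly at or near 0. Of 9 further genes, 3 reached 1 FPKM in all replicates, compared with 44.1% of all genes. *Gpx8*, a peroxidase of the endoplasmic reticulum, was at 90.7, 84.2 and 91.8 FPKM. *Prdx4*, the secretory pathway peroxiredoxin, had a mean of 47.2 FPKM, and the mitochondrial *Prdx3* one of 43.1. As deposited, *Prdx3* was thus above *Sod2*, the superoxide dismutase of the same compartment, in every replicate (44, 42 and 43.2 compared with 13.7, 14.1 and 14.1 FPKM). The size of this difference depends on the length used, which was 3824 bases for *Sod2*, with 31.8% of them in exact runs elsewhere. Copies of *Prdx3* were not sought. Extracellular *Sod3* averaged 0.057 FPKM, *Gpx2* 0.053 and *Gpx3* 0.027, levels at which a few reads decide the value. *Gpx5*, *Gpx6* and *Gpx7* were at 0 in all replicates. The median of these 9 genes was 0.053 FPKM, compared with 0.277 over all genes.

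Genes listed as support for the enzymes, which include regulators such as *Txnip* and not only genes that recharge them, were widely expressed. Of 21 genes of thioredoxin and glutathione support, 20 reached 1 FPKM in all replicates (44.1% of all genes did), with a median of 12.9 FPKM. Among the highest 1000 genes, a category that holds 4.41% of all genes, were 2 of the 21. *Txn1*, the cytosolic thioredoxin, averaged 125 FPKM and was thus below *Prdx1* and above *Prdx2*. *Txnip*, which binds and inhibits thioredoxin, averaged 109 FPKM, and *Srxn1*, the sulfiredoxin that rescues overoxidised peroxiredoxins, 53 FPKM. The exception was *Slc7a11*, the cystine importer that feeds glutathione synthesis, at 0.24, 0.23 and 0.26 FPKM, named after its value was seen. For the selenium side, all 6 genes of selenocysteine insertion reached that level, led by the elongation factor *Eefsec* at 56.7 FPKM, *Sephs2* at 12.2 and *Trnau1ap* at 12.2.

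All 11 genes of NRF2 and KEAP1 control reached 1 FPKM in all replicates, as did 44.1% of all genes, with a median of 15.2 FPKM. *Sqstm1*, the autophagy receptor that binds KEAP1, averaged 410.0 FPKM, *Nfe2l2*, which encodes NRF2 itself, 117 and *Nfe2l1* 80.3. *Nfe2l2* differed between replicates in the opposite sense to *Gpx4*, with 119, 91.1 and 142 FPKM. Across genes, differences between replicates 3 and 4 moved with GC content (Spearman's rho 0.783), but the GC content of *Nfe2l2* was not compared with it. A relation between *Nfe2l2* and *Gpx4* was not tested. Other known targets of NRF2 were present at varied levels, 7 of 8 reaching 1 FPKM in all replicates with a median of 49 FPKM. *Gstp1*, a glutathione transferase, averaged 448 FPKM, *Hmox1* (heme oxygenase 1) 76.7 and *Me1* (malic enzyme) 68.2. *Nqo1*, which belongs to the same set of targets, was lower than all of those 7, of which the lowest, *Blvrb*, averaged 18.8 FPKM. The remaining gene of the 8, *Gsta4*, averaged 0.03 FPKM and was thus below *Nqo1*. Both are named after their values were seen. Genes listed under thioredoxin and glutathione support were not part of this comparison, whether or not NRF2 acts on them. In that list some genes averaged less than *Nqo1*, among them *Gclm* (12.25 FPKM), *Gclc* (10.69) and *Slc7a11* (0.243). Others averaged more, among them *Txnrd1* (52.9 FPKM), *Srxn1* (53) and *Gsr* (16.2). These genes, too, are named after their values were seen. The place of *Nqo1* among NRF2 targets thus depends on the list used.

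The listed producers of superoxide and hydrogen peroxide were mostly low. They were subunits of NADPH and dual oxidases, xanthine and aldehyde oxidases, and monoamine oxidases. Genes of the respiratory chain and of melanin synthesis were not on this list, so producers as a whole are not described. Of the 14 listed genes, 3 reached 1 FPKM in all replicates, again beside 44.1% of all genes. The list median was 0.085 FPKM, and 6 were below the level of 3 reads on average. *Cyba*, the p22phox partner subunit of the NADPH oxidases, was the highest with 135, 161 and 115 FPKM. Its catalytic partners were low, with *Nox4* at 0.447 FPKM on average, *Nox1* at 0.01, and *Nox3* and *Cybb* at 0.003 each. These 4 are named after their values were seen. *Maoa*, the monoamine oxidase A gene, averaged 14.7 FPKM.

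**Figure D5:**
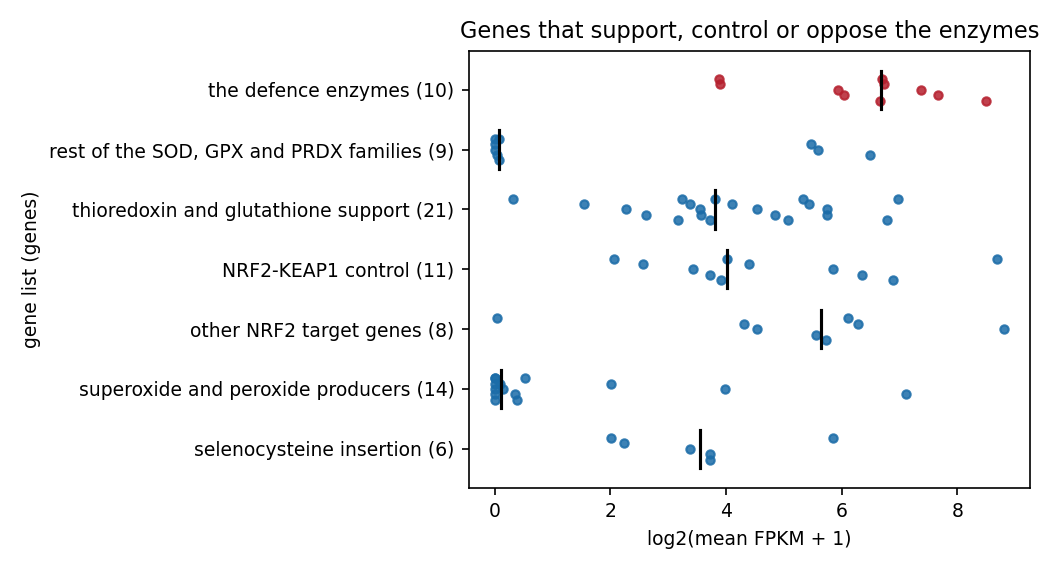
Mean level of each gene as log2(FPKM + 1), for the 10 enzyme genes (red) and 6 lists of related genes (blue), with the median of each list as a black line and the number of genes in brackets. The 10 enzyme genes have a median of 101 FPKM, whereas the rest of their families and the listed producers sit near 0 apart from 3 genes in each.

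Promoter sequence was searched because NRF2 acts through the antioxidant response element. RefSeq windows from 250 bases before to 50 bases after the start (GRCm38.p6, a later build than the mm9 of the expression values) covered 9 of the 10 genes in 12 windows. The core TGACNNNGC was found, on the minus strand, in 2 of the 12 windows, and in 12.4% of all 32851 windows. With so few windows, this count cannot be set apart from the share of all windows. The 2 matches were in *Prdx1* and *Sod1*. The stretches with the core in capitals, printed on the plus strand, lie at chr4:116685446-116685494 and chr16:90220686-90220734.
Prdx1: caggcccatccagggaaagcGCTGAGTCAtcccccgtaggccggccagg
Sod1: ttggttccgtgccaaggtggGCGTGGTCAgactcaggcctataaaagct
The match began 133 bases before the start in *Prdx1* and 56 before it in *Sod1*. GCCNNNGGC, a core bound by TFAP2 factors, was in 3 of the 12 windows (1 of *Gpx1*, 2 of *Gpx4*) and in 16.6% of all windows. CACGTG, a core bound by MITF, was in 0 of the 12 and in 7.2% of all. Other forms of the MITF site were not searched, so this count does not show that such sites are absent. Both strands were searched, and a match says only that the letters are there. *Prdx6* had no window, and sequence further from the start was not searched. A gene without a match here, such as *Nqo1*, may therefore still have one elsewhere.

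The genes nearest to *Gpx1* over the 3 replicates, by distance of log2(FPKM + 1), were *Gsn* at a distance of 0.079, *Gm11808* at 0.084 and *P4hb* at 0.088. *Gsn* encodes the actin-severing protein gelsolin and *P4hb* a protein disulfide isomerase.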

How the data were processed

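Total RNA of 3 melan-a cultures was made into TruSeq Stranded mRNA libraries and sequenced on an Illumina instrument in 3 lanes per replicate. The authors trimmed 10 bases from the 5′ end of reads, aligned them to mm9 with STAR 2.3.0e, removed rRNA reads, counted on Ensembl 67 with HTSeq 0.5.3p3, and deposited FPKM values with TMM scaling (trimmed mean of M values) and kept to 2 decimals. The submitters' processing notes also name CASAVA 1.8.2, SAMtools and edgeR. How counts became FPKM was not given in the sources used here. It was worked out from the values: where genes differ in candidate lengths, joined exons of protein-coding transcripts gave whole reads for 100% of 126 low values, compared with 67.4% of 95 for all transcripts joined (tolerance 0.005 FPKM plus 0.2% of the value). These lengths came from GENCODE vM1 (Ensembl 65), and only genes shorter than 1600 bases were used to compare them. Scaled library sizes were read from genes of at most 400 bases and at most 30 reads, and the reads per gene printed are estimates from them, for scaled libraries. Since exact read counts were not recovered for all genes and there was 1 group, no count model was run. The level of 3 reads on 1 kb was 0.0557, 0.0638 and 0.0452 FPKM in replicates 1, 3 and 4. Estimated reads of the 10 genes ran from 1005 to 35258, a counting error of 0.638% to 3.15% in the shallowest replicate. It covers counting error only.

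Means and SDs were taken over the 3 replicates, as deposited and without a pseudocount. Neighbours in the order were compared with an exact sign-flip permutation test of log2 ratios within replicates, adjusted by Benjamini-Hochberg over 9 pairs. Related genes were taken from 13 lists with a limit of 1 FPKM in all replicates. Copies were sought in the mm9 genome with BLAST 2.17.0 (at least 95% identity over 100 bases). Exact runs of 50 bases elsewhere were left out of the length in 1 alternative. Recovery of library size and length rule was tested on simulated data. Scripts used Python 3.11.15, pandas 2.3.3, scipy 1.17.1 and pysam 0.24.0. The text names all 10 genes, the rest of their families, the 3 highest of each list, genes of each list at 0 and the 3 genes nearest to the highest one, and says where another gene was named after its value was seen. One gene that this rule names is not reported here. The genes and lists were chosen with earlier results of these data known. Annotated positions were found for 22324 of 22698 genes.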

Additional observations from a re-analysis of the deposited data

How the results depend on the processing

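Leaving out each replicate in turn left the summed level at 1132 to 1231 FPKM, 5 to 6 of 9 neighbouring pairs apart, *Gpx1* with 29.4% to 30.5% of the sum, and 6 to 7 of the 10 genes among the highest 1000. Ratios near 0 changed sign: *Gpx4* to *Prdx2* was -0.09 (log2) without replicate 3, *Cat* to *Prdx6* -0.02 without replicate 4, *Prdx2* to *Prdx5* -0.002 without replicate 4, and peroxiredoxins to glutathione peroxidases -0.02 without replicate 1 and -0.03 without replicate 4. The median over replicates, log2(FPKM + 1) in place of log2 ratios and the other sets of genes ranked moved no result beyond the spread between replicates. Pathway counts do not use the mean, so the median left them as they were. Rescaling each replicate to a sum of 1000000 raised all levels alike, to a summed 3135, or 3500 without mitochondrially encoded genes. A limit of 0.1 FPKM in place of 1 gave 6 listed producers in place of 3. The 3 other lengths were chosen after seeing the data. With the longest coding transcript, *Gpx1* held 28.1%, and the log2 ratio was 1.48 for *Gpx1* to *Gpx4*, 3.02 for peroxiredoxins to *Cat* and 2.59 for peroxide to superoxide removal. With the shortest transcript that has the full coding part, the sum was 1759 FPKM, 3 neighbouring pairs were apart, *Gpx1* held 20.3%, and the log2 ratio of *Gpx1* to *Prdx1* turned to -0.79. The other log2 ratios became 1.82 for *Prdx1* to *Prdx2*, 1.48 for *Gpx1* to *Gpx4*, 1.07 for peroxiredoxins to glutathione peroxidases, 3.98 for peroxiredoxins to *Cat* and 3.14 for peroxide to superoxide removal. Without bases in exact runs elsewhere, the sum was 1595 FPKM, *Gpx1* held 22.4%, and the log2 ratio of *Prdx1* to *Sod1* turned to -0.45. It became 4.05 for *Sod1* to *Sod2*, 0.46 for *Gpx1* to *Gpx4*, -0.19 for peroxiredoxins to glutathione peroxidases, 3.06 for peroxiredoxins and 3.25 for glutathione peroxidases to *Cat*, and 1.76 for peroxide to superoxide removal. In each case the divisor alone was changed. No paired analysis was possible because no groups exist whose samples could be paired, and genes were compared within replicates. Depth limits only the genes of the lists near 0.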
